A study of Mus musculus with 9 samples.

Results

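Rab GTPases are a family of small membrane-bound switches, and their transcripts were compared between regulatory T (Treg) cells with and without the Hippo kinases Mst1 and Mst2. The family was taken as every gene whose symbol is Rab followed by its number and an optional letter, measured by a probe set of the array that carries that symbol alone. This gave 58 genes of the 22180 measured, on 66 probe sets of 23521, and a gene with several probe sets is represented by the brightest of them by mean (its standing probe set). Rab4b is not described, because its probe sets carry other symbols as well. Treg cells hold back other immune cells, and their identity rests on Foxp3, a transcription factor. All samples were YFP-positive, CD45.2-positive and CD45.1-negative CD4 T cells sorted from bone marrow chimeras, whose RAG1-/- hosts make no mature T or B cells of their own. The hosts had received marrow 2 months earlier, CD45.2 donor marrow and wild-type CD45.1 marrow at 1 to 1. In the wild-type group (n = 5) the CD45.2 donor was Foxp3YFP-Cre, which puts YFP and Cre recombinase under control of Foxp3. In the Mst1/Mst2-null group (n = 4) the donor was Foxp3YFP-CreStk4f/fStk3f/f, in which the genes of Mst1 (Stk4) and Mst2 (Stk3) are floxed, so that deletion is driven in cells that express Foxp3. Both groups therefore carried Cre and YFP, and the strain label of both is C57BL/6. Each sample was 1 Affymetrix array, and whether samples came from separate chimeras is not stated, so the p-values cover the spread of these 9 samples, which may be technical in part.

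A Rab protein is active when bound to GTP and inactive when bound to GDP. Exchange factors (GEFs, many with a DENN domain) load GTP, and GTPase-activating proteins (GAPs, most with a TBC domain) end the active state. A prenyl tail added by Rab geranylgeranyl transferase anchors the protein in a membrane, and GDP dissociation inhibitor (GDI) extracts it again. Active Rab proteins recruit effectors such as tethers, coat adaptors and motor adaptors, and each membrane compartment carries its own set of Rab proteins. In T cells this traffic carries receptors to the surface and back from endosomes and releases cytokines and granules.

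The arrays were similar in scale, with medians of all probe sets between 3.99 and 4.08 on the log2 scale. The mean correlation of an array with the others of its group was between 0.993 and 0.994 in wild type and between 0.987 and 0.989 in null samples, so null samples varied more. The heat shock genes Hspa1a and Hspa1b differed widely between arrays of each group. Hspa1a was 5.18, 2.80, 9.14, 9.88 and 9.93 in wild type and 3.18, 9.86, 9.69 and 8.11 in null samples. Their level was a covariate in 1 of the alternatives described below. The targeted gene Stk4 was between 7.84 and 8.09 in wild type and between 7.50 and 7.83 in null samples, a difference of -0.27 ± 0.084 (SE) without overlap (limma adjusted p = 0.146, above the threshold of 0.05). Its probe set is not known to lie within the deleted part, so this does not check the deletion, and no probe set was named for Stk3. The Treg markers Foxp3, Il2ra, Ctla4, Ikzf2, Tnfrsf18, Cd4 and Cd3e were all far above the median of all probe sets, 4.04. Their mean level was between 9.84 and 9.90 in wild-type arrays and between 9.53 and 9.72 in null arrays, and 1 of the 7, Ikzf2 (which encodes Helios), fell. None of the measured markers of B cells (7), myeloid cells (8), CD8 T cells (4), NK cells (3), erythroid cells (1 of 5 listed) or platelets (4) passed. Of the myeloid markers, S100a8 (8.90), S100a9 (8.41), Lyz2 (7.36) and Cd14 (3.60) were highest of all arrays in null array 4. Fcer1g was level there with null array 1 (5.79), and Csf1r, Itgam and Adgre1 were not highest there. The B cell markers Cd79b (7.35), Ms4a1 (5.33), Pax5 (4.72), Ebf1 (4.55), Cd22 (5.96) and Blk (4.74) were also highest of all arrays in null array 4. Cd79a was not, with 6.00 there and 6.25 in null array 2. The mean level of the B cell markers was between 4.47 and 5.22 in wild-type arrays and between 4.75 and 5.52 in null arrays, that of the myeloid markers between 4.07 and 4.96 and between 4.15 and 5.74, and that of the CD8 markers between 4.46 and 4.88 and between 4.78 and 5.03. Their part in the results was not tested.

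Of the 58 Rab genes, 4 passed the test of null against wild type (limma over all genes, adjusted p under 0.05), 1 higher and 3 lower. That is 6.9% of the family, beside 2.32% of all genes (0.428% higher and 1.89% lower). Without Rab6b the family share is 5.26%. Genes with a mean above the median of all probe sets in at least 1 group were also counted apart. Of these, 9.3% of 43 Rab genes passed, beside 4.29% of all 11577. The gene that rose was Rab6b, and those that fell were Rab8b, Rab27a and Rab19. In 5 genes the groups did not overlap (1 higher, 4 lower), the fifth being Rab18. Over all genes 6.16% had groups without overlap, 1.76% higher and 4.4% lower. The median difference over the family was -0.031 on the log2 scale, against 0.0023 over all genes. Among the genes above the median probe set it was -0.1 for Rab genes and -0.036 for all genes. Differences were negative in 38 Rab genes and positive in 20, but in 32 and 26 after quantile normalisation of the gene values. The negative share was 65.5%, beside 49.3% of all genes, and 55.2% beside 47.3% after quantile normalisation. Among the genes above the median probe set it was 76.7% of Rab genes, beside 58.8% of all such genes. For 15 Rab genes both group means were dimmer than the median probe set, so signal above background is not shown: Rab26, Rab25, Rab7b, Rab15, Rab34, Rab13, Rab33a, Rab31, Rab39, Rab30, Rab42, Rab27b, Rab17, Rab40b and Rab3b. None of these passed the test. In bulk RNA, fewer cells of a type and less RNA per cell cannot be told apart, which holds for every difference below.

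**Figure D1:**
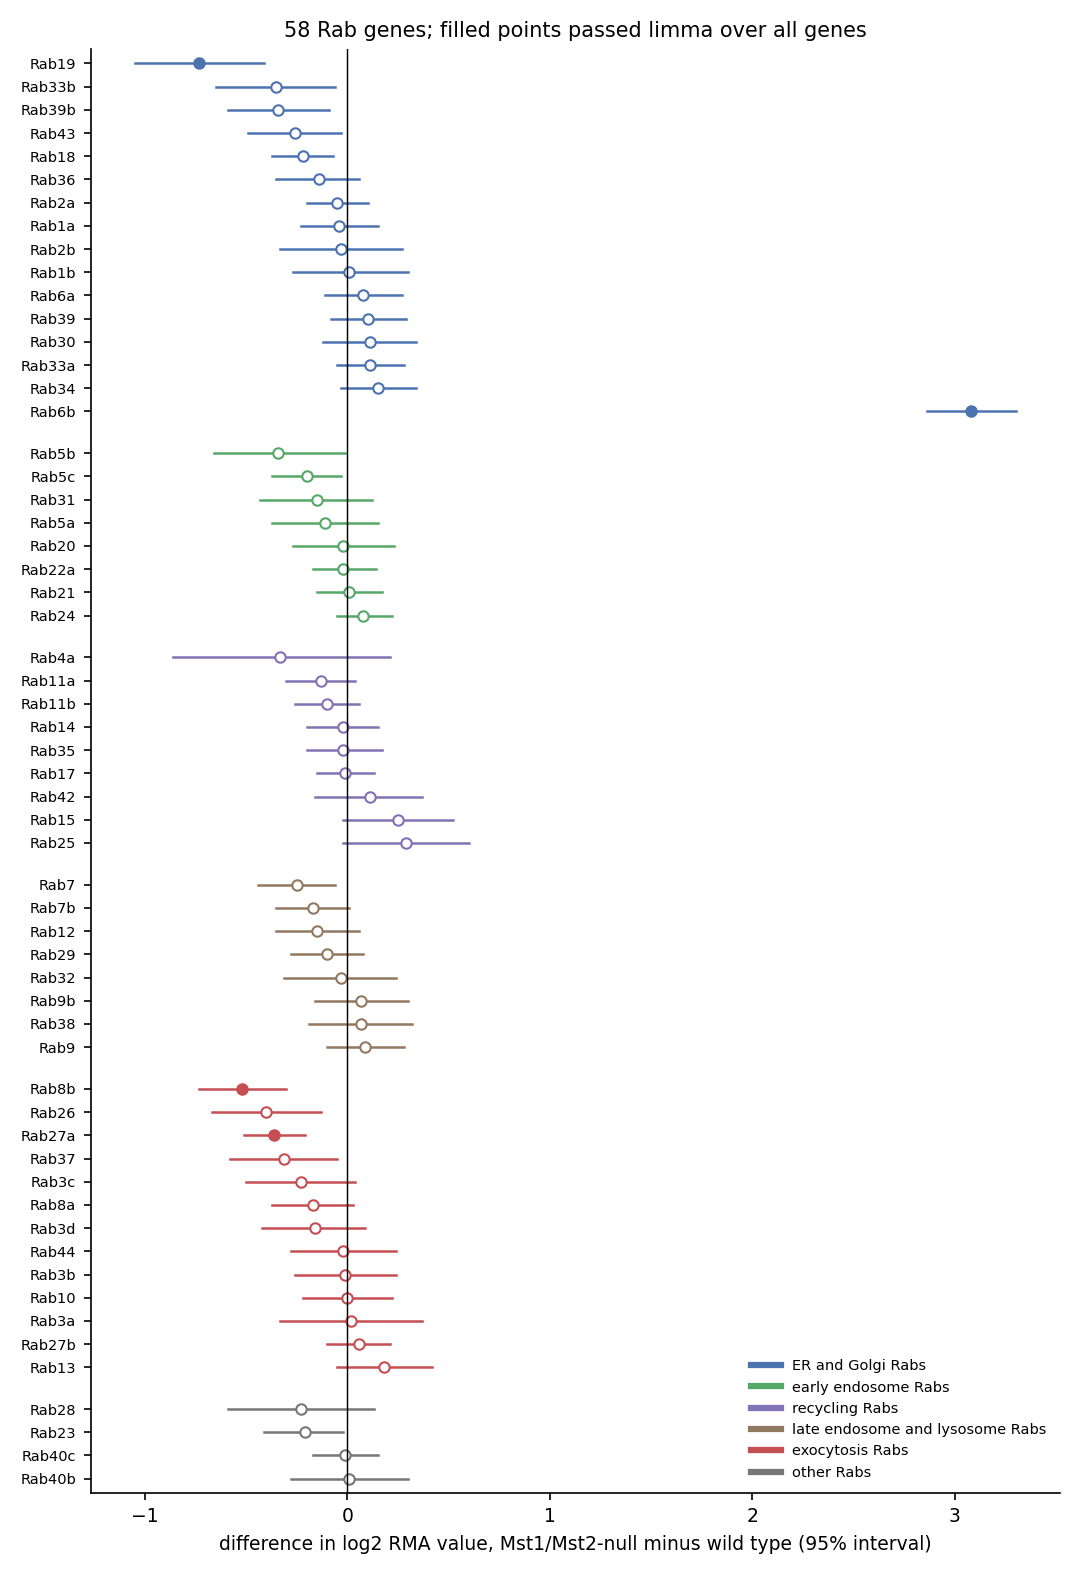
Difference in log2 value between Mst1/Mst2-null and wild-type Treg cells for each of the 58 Rab genes, grouped by compartment and ordered within each group; points are differences, lines are 95% intervals, and filled points passed limma over all genes. Rab6b lies alone at 3.08, while the other 57 genes lie between -0.73 and 0.29.

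Rab6b was the member with the largest difference. Rab6 proteins sit on the Golgi apparatus and direct vesicles within it and from it to the plasma membrane and the endoplasmic reticulum, and Rab6b is the paralog best known from neurons, while Rab6a is made in most cells. On its standing probe set Rab6b was 5.29, 4.87, 5.11, 5.06 and 5.09 in the wild-type samples and 8.16, 8.07, 8.39 and 8.01 in the null samples. All null values lay far above all wild-type values. The wild-type mean was 5.08 ± 0.15 (SD, n = 5) and the null mean 8.16 ± 0.17 (SD, n = 4), an 8.44-fold rise with a 95% interval from 7.24 to 9.85. On this probe set Rab6b had the smallest p of all 22180 genes (limma adjusted p = 3.96e-07) and also the largest positive difference. Its second probe set was 4.60, 4.04, 4.66, 4.84 and 3.69 in wild type and 7.35, 8.03, 7.64 and 7.46 in null samples. There the wild-type values lay around the median of all probe sets and the null values well above it, a difference of 3.25 on the log2 scale (limma over all probe sets, adjusted p = 0.000124). No fold is given, since wild-type signal above background is not shown on this probe set. Rab6b passed in each of the 19 alternatives run, those without any 1 array and without null arrays 2 and 4 included; 18 of these used the standing probe set and the other joined both by their mean (difference 3.17, limma adjusted p = 4.3e-06).

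Rab6a did not move in the same way. It was 7.17, 7.14, 7.23, 7.37 and 7.50 in wild type and 7.44, 7.27, 7.38 and 7.36 in null samples, so that the null values lay inside the wild-type range. The difference was 0.08 on the log2 scale, with a 95% interval from -0.11 to 0.27 (limma adjusted p = 0.732), which leaves room for changes of up to about this size. Within each sample Rab6b was then set against Rab6a. The log2 value of Rab6b minus that of Rab6a was between -2.41 and -1.88 in wild type and between 0.65 and 1.02 in null samples. Probe sets differ in brightness, so only the change in this quantity can be read. The group means of this quantity differed by 3.0, a 7.99-fold unequal change of the paralogs (exact two-sided permutation test over 126 splits, p = 0.0079, the smallest these groups allow). Adjusted over 4 paralog pairs, this permutation p was 0.016. With Rab6a varying little (7.14 to 7.50), this comparison largely repeats the separation already seen in Rab6b and adds no separate evidence for it.

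**Figure D2:**
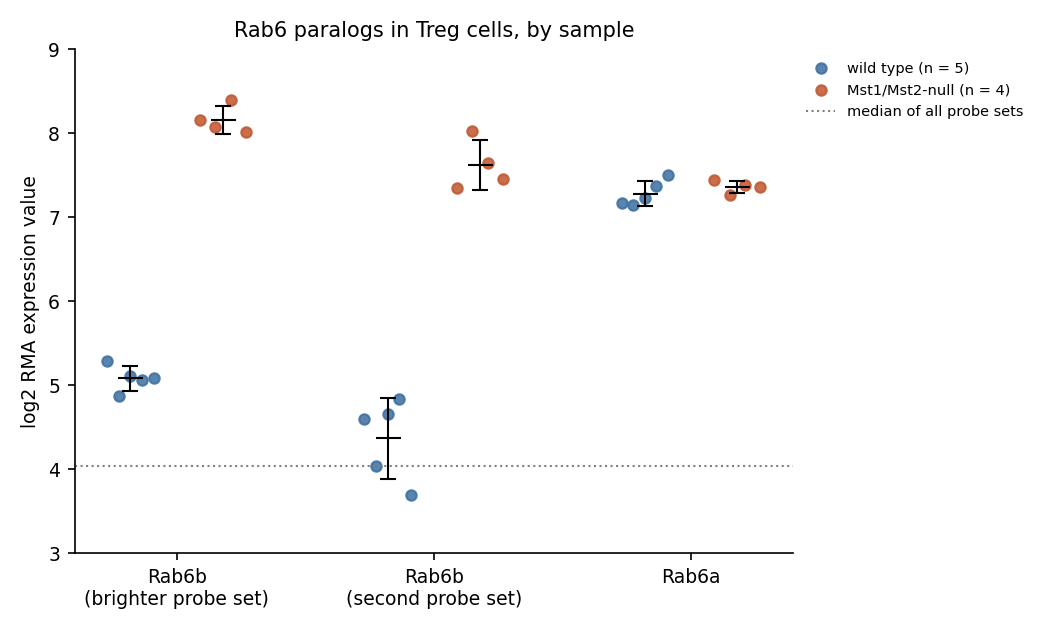
Log2 RMA value of Rab6b (both probe sets) and Rab6a in each sample; points are samples, black bars are means with SD, and the dotted line is the median of all probe sets. Null samples (right of each pair) lie above 7 for both Rab6b probe sets, where wild-type samples lie below 5.3, while the groups overlap for Rab6a.

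The promoters of the paralogs are shown because the paralogs differed, with that of Rab19, which fell (below), as the 1 promoter among the changed members with a match to a searched motif. Each is the 250 bases before the transcription start in the RefSeq annotation of GRCm38.p6, in which 47 of the 58 Rab genes were listed with a promoter. Capitals mark a match to the STAT5 motif TTCNNNGAA, searched on both strands together with the TEAD motif GGAATG and the FOXO motif GTAAACA.
Rab6b, GRCm38.p6, chr9:103111824-103112073, forward strand: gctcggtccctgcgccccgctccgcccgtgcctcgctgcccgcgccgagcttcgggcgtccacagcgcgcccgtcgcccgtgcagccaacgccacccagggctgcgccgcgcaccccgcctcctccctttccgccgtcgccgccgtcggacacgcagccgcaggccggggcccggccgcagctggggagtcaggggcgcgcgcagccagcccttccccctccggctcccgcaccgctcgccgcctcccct
Rab6a, GRCm38.p6, chr7:100607336-100607585, forward strand: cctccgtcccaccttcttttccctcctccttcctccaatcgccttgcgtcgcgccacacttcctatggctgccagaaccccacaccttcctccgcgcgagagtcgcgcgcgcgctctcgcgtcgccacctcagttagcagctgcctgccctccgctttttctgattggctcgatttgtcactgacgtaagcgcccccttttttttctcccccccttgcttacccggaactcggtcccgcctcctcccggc
Rab19, GRCm38.p6, chr6:39381103-39381352, forward strand: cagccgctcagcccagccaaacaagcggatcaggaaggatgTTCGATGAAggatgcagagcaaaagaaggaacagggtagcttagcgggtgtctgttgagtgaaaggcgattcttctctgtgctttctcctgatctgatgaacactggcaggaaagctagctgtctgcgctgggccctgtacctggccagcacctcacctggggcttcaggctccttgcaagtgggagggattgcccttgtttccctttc
The Rab6b stretch is 80.8% G and C with 40 CpG dinucleotides, that of Rab6a 62.8% with 24, and that of Rab19 55.2% with 6. None of the 3 motifs occurred in the stretches of Rab6b, Rab6a or Rab8b, or in either of the Rab27a stretches. The Rab19 match begins 209 bases before the start. Of the 20520 promoters of measured genes, 6.70% held TTCNNNGAA, 11.7% GGAATG and 2.75% GTAAACA, and of the 59 Rab promoters 5, 6 and 2 did. No measurement of binding or chromatin was made in these samples, so a match is only a description of the letters.

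The position of the Rab6b probe sets was examined, since the standing one and the second differ in it. Probe set numbers on this array follow the order of genes along 1 strand of a chromosome at a time: for 94.8% of 17722 probe sets, most of the 20 nearest numbers on either side with a listed place belonged to genes on the same strand. The second Rab6b probe set (17520922) followed this rule, with 30 of its 33 placed neighbours in number on the strand of Rab6b. The standing one (17530231) did not: 39 of its 40 placed neighbours in number were genes on the opposite strand of the same chromosome, and the next named number is that of Srprb. This happened for 3.44% of probe sets overall and for 5 of the 55 Rab probe sets with a listed place, the others being the standing probe set of Rab3d and second probe sets of Rab11b, Rab20 and Rab39b. Nothing states which strand these probes read (not given in the sources used here). The rise of Rab6b stands on the second probe set as well as on the standing one. The 8.44-fold rise, the rank among all genes and the 7.99-fold unequal change from Rab6a rest on the standing one. When each probe set was tested on its own, the limma adjusted p was 4.72e-07 on the standing one and 0.000124 on the second. With both joined by their mean, Rab6b minus Rab6a changed by 3.09 (exact two-sided permutation test, p = 0.00794).

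In the reference gene order 1 of the 10 measured genes nearest to Rab6b passed the test. This was Srprb, the gene that follows Rab6b, which encodes a subunit of the signal recognition particle receptor of the endoplasmic reticulum. It was 6.15, 6.01, 6.16, 6.02 and 5.97 in wild type and 6.49, 6.56, 6.32 and 6.50 in null samples, so every null value was higher. Its rise was 1.33-fold (limma adjusted p = 0.0167), and the limma adjusted p was 0.052 without wild-type array 4 and 0.0524 without null array 1, and 0.0741 without null arrays 2 and 4. The other nearest genes on that side (1300017J02Rik, Topbp1, Cdv3 and 5830418P13Rik) and the 5 on the other side (Slco2a1, Ryk, Gm5627, Amotl2 and Anapc13) had differences between -0.25 and 0.08. Of the 10 genes nearest to Rab8b 1 passed (Fbxl22, an F-box protein gene, difference 0.62, limma adjusted p = 0.0428, and above the threshold without any 1 of 8 of the 9 arrays, at 0.0517 to 0.112). Fbxl22 also missed the threshold with arrays centred on their median, with array weights, with the heat shock gene covariate and without null arrays 2 and 4. None of the 10 nearest to Rab27a, Rab19 or Rab6a passed. Rab6b, Rab27a and Rab8b are on chromosome 9, where 2.97% of measured genes with a listed promoter passed, and Rab19 is on chromosome 6, where 1.72% did.

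Among Rab proteins of exocytosis, Rab8b and Rab27a fell. Rab8b carries vesicles to the plasma membrane alongside its paralog Rab8a. It was 9.08, 8.93, 9.02, 9.17 and 9.32 in wild type and 8.39, 8.55, 8.78 and 8.63 in null samples. The groups did not overlap, and the mean fell from 9.10 ± 0.15 (SD, n = 5) to 8.59 ± 0.16 (SD, n = 4), a 1.43-fold fall (limma adjusted p = 0.025). The call was lost without wild-type array 1 (limma adjusted p = 0.0576), 4 (0.0719) or 5 (0.0517), without null array 1 (0.0682) or 2 (0.0502), and without null arrays 2 and 4 together (0.0862). Rab8a had a difference of -0.17 (95% interval from -0.37 to 0.03, limma adjusted p = 0.42) and overlapping groups. Rab8b minus Rab8a, compared within each sample after the values were seen, changed by -0.34 with overlap (exact permutation p = 0.071, adjusted over 4 paralog pairs 0.071), so an unequal change of Rab8b and Rab8a was not shown.

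Rab27a docks secretory granules at the plasma membrane, including the lytic granules of killer lymphocytes, and acts in exosome release. It was 7.76, 7.92, 7.86, 7.94 and 7.81 in wild type and 7.39, 7.53, 7.62 and 7.44 in null samples. Each null value was again below each wild-type value. The wild-type mean was 7.86 ± 0.075 (SD, n = 5) against 7.50 ± 0.10 (SD, n = 4) without the kinases, a 1.29-fold fall (limma adjusted p = 0.0249). The call was lost without wild-type array 2 (limma adjusted p = 0.0677), 3 (0.0564) or 4 (0.0699), without null array 1 (0.0697) or 4 (0.0512), without null arrays 2 and 4 together (0.0775), and after quantile normalisation of the gene values (0.0833). Rab27b, its paralog, was dim in every sample, between 2.78 and 3.07. Rab27a minus Rab27b, also compared after the values were seen, changed by -0.42 without overlap (exact permutation p = 0.0079, adjusted over 4 pairs 0.016). With Rab27b dim and nearly constant, this comparison largely repeats the separation already seen in Rab27a. It adds no separate evidence and says little about Rab27b. Sytl1, which encodes an effector of Rab27 proteins, also fell (below).

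Rab19, a little-studied Golgi-associated member, had the largest fall in the family. It was 6.77, 6.90, 6.84, 6.60 and 6.40 in wild type and 6.20, 5.81, 5.65 and 6.24 in null samples, close to each other at wild-type array 5 and null array 4 but without overlap. The wild-type mean of 6.70 ± 0.20 (SD, n = 5) compared with a null mean of 5.97 ± 0.29 (SD, n = 4), a 1.66-fold fall (limma adjusted p = 0.0281). The call was lost without wild-type array 1 (limma adjusted p = 0.0733), 2 (0.0788), 3 (0.0729) or 4 (0.062), without null array 2 (0.0621) or 3 (0.0712), and without both null arrays 2 and 4 (0.0591). Rab43, the related Golgi member, had a difference of -0.26 (limma adjusted p = 0.254). The change of Rab19 minus Rab43, also compared after the values were seen, was -0.47, with overlapping values (exact permutation p = 0.048, adjusted over 4 pairs 0.063). In all 19 alternatives run, the differences of Rab8b, Rab27a and Rab19 stayed negative, from -0.58 to -0.45, from -0.40 to -0.29 and from -0.82 to -0.62.

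**Figure D3:**
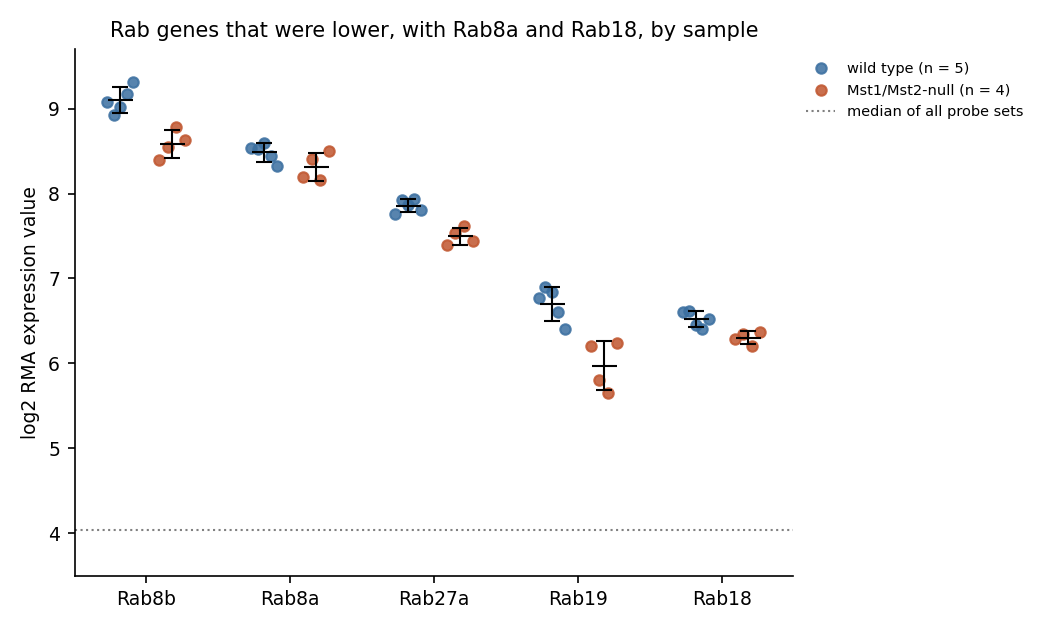
Log2 RMA value of Rab8b, Rab8a, Rab27a, Rab19 and Rab18 in each sample; points are samples, black bars are means with SD, and the dotted line is the median of all probe sets. Null samples lie below wild-type samples without overlap for Rab8b, Rab27a, Rab19 and Rab18, and Rab8a overlaps; Rab18 did not pass the test.

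The other Rab genes of the endoplasmic reticulum and Golgi did not pass. Of these 16 genes 1 rose (Rab6b), 1 fell (Rab19) and 14 did not pass, and the median difference was -0.036. Rab18, which acts at the endoplasmic reticulum and on lipid droplets, was between 6.41 and 6.62 in wild type and between 6.21 and 6.37 in null samples, a difference of -0.22 without overlap (limma adjusted p = 0.142). Rab33b, a Golgi and autophagy member, had a difference of -0.35 (limma adjusted p = 0.227) and Rab39b, best known from neurons, -0.34 (0.176). The members that carry the bulk of early secretory traffic had differences close to 0. These were Rab1a (-0.04, 95% interval from -0.23 to 0.15), Rab1b (0.01, from -0.27 to 0.30), Rab2a (-0.05, from -0.20 to 0.10) and Rab2b (-0.03, from -0.33 to 0.27). Rab30, Rab33a, Rab34, Rab36 and Rab39 had differences between -0.14 and 0.15.

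None of the 8 Rab genes assigned to early endosomes passed (median difference -0.063). Rab5 proteins drive fusion of early endosomes, and the 3 isoform genes all had negative differences: -0.11 for Rab5a, -0.34 for Rab5b and -0.20 for Rab5c (limma adjusted p = 0.748, 0.318 and 0.237). Rab5b was between 6.41 and 6.72 in wild type, and in null samples 6.29, 6.45, 6.42 and 5.67, so that null array 4 alone lay far below. Without that array its difference was -0.16. Rab5c was between 7.56 and 7.72 in wild type and between 7.27 and 7.60 in null samples, with overlap. Rab20, Rab21, Rab22a, Rab24 and Rab31 had differences between -0.15 and 0.08.

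None of the 9 recycling members passed either (median -0.017). Rab4a, of the fast recycling route, had the largest negative difference among them, -0.33 (limma adjusted p = 0.597). It was 5.02, 4.81 and 4.99 in null arrays 1 to 3 and 6.04 in null array 4, on either side of the wild-type range of 5.12 to 5.87. Rab11a and Rab11b, of the slow recycling route, had differences of -0.13 and -0.10 (limma adjusted p = 0.472 and 0.588). Rab14, Rab15, Rab17, Rab25, Rab35 and Rab42 lay between -0.02 and 0.29.

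Of the 8 late endosome and lysosome members none passed (median -0.065). Rab7, which directs fusion of late endosomes with lysosomes, was 9.57, 9.54, 9.71, 9.68 and 9.51 in wild type and 9.33, 9.60, 9.28 and 9.20 in null samples. Null array 2 lay within the wild-type range and the other null arrays below it. The difference was -0.25 (limma adjusted p = 0.197), and without null array 2 it was -0.33 and passed (limma adjusted p = 0.0433). That was the only 1 of the 19 alternatives in which Rab7 passed. In the other 8 omissions of 1 array the limma adjusted p was 0.233 to 0.349, and without null arrays 2 and 4 together 0.0893. Rab7b, Rab9, Rab9b, Rab12, Rab29, Rab32 and Rab38 had differences between -0.17 and 0.09.

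The exocytosis group held 13 genes, of which 2 fell, 0 rose and 11 did not pass, with a median of -0.16 (-0.11 after quantile normalisation). Rab26, a member of secretory granules, had a difference of -0.40 (limma adjusted p = 0.142), but its values, between 3.06 and 3.97, were all dimmer than the median probe set. Rab37, also of secretory granules, was between 7.48 and 7.98 in wild type and between 7.33 and 7.70 in null samples (difference -0.31, limma adjusted p = 0.238). Rab10, a close relative of Rab8 proteins, was 8.57 ± 0.086 (SD, n = 5) and 8.58 ± 0.21 (SD, n = 4). Rab3a, Rab3b, Rab3c, Rab3d, Rab13 and Rab44 had differences between -0.23 and 0.18. Of the 4 remaining members, Rab23, known for its role in Hedgehog signalling, had a difference of -0.21 (limma adjusted p = 0.29), and Rab28, Rab40b and Rab40c lay between -0.23 and 0.01.

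Of the 8 second probe sets, which belong to 7 genes, 1 passed when each probe set was tested on its own, that of Rab6b (over all probe sets 2.11% passed). For Rab11b the differences were -0.21 and 0.05 beside -0.10 on the standing probe set, and for Rab8a -0.15 beside -0.17. Rab39b had -0.39 beside -0.34, again in the same direction. The second probe sets of Rab39b and of Rab3c (0.01, against -0.23), Rab3d (0.01, against -0.16) and Rab20 (-0.15, against -0.02) had means below the median of all probe sets.

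The SD was larger in null than in wild-type samples for 39 of 58 Rab genes (67.2%), beside 59.2% of all genes. Among genes with a mean above the median of all probe sets it was larger in 31 of 43 Rab genes (72.1%), beside 66.6% of all such genes. The widest null SD was that of Rab4a (0.56), followed by Rab28 (0.37) and Rab5b (0.36). Null array 2 held the highest of the 4 null values in 23 Rab genes (39.7%, against 32.3% of all genes), among them Rab1b at 8.13, where the other null arrays were between 7.42 and 7.63. Null array 4 held the lowest value in 18 (31.0%, against 27.4%), among them Rab1a at 9.66, where the others were between 9.95 and 10.07.

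Genes that control or read Rab proteins were examined from 6 lists, which share some members. Of 159 distinct genes measured, 3 rose and 9 fell (7.55%, against 2.32% of all genes), with a median difference of -0.044 that became -0.0056 after quantile normalisation. Of the 159, 135 had a mean above the median of all probe sets in at least 1 group, and these held all 12 that passed. Over all genes with such a mean 4.29% passed, and the median difference was -0.036. The lists were chosen with earlier results of these data known, so the share of 7.55% is a description and no test of the lists. Among 48 exchange factors 2 rose, 3 fell and 43 did not pass (median -0.031). Als2cl, related to the Rab5 exchange factor alsin, rose 1.75-fold, and Rab3ip, the Rab8 exchange factor Rabin8, 1.62-fold (limma adjusted p = 0.0166 and 0.0355). Als2cl was between 4.42 and 5.07 in wild type and between 5.40 and 5.82 in null samples, and Rab3ip between 6.99 and 7.47 and between 7.58 and 8.25. Dennd5a, a DENN protein that binds Rab6, fell 1.57-fold, and Dennd4a, a Rab10 exchange factor, 1.34-fold (limma adjusted p = 0.0151 and 0.0206). The Rab5 exchange factor gene Rin2 fell from a mean of 4.25 to 3.57 (limma adjusted p = 0.0323), and no fold is given because the null mean was dimmer than the median probe set. Dennd5a was between 6.45 and 6.69 in wild type and between 5.61 and 6.18 in null samples.

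Of 40 GTPase-activating protein genes 2 fell and 0 rose (median -0.053). Tbc1d4, known for its control of glucose transporter traffic, was 6.42, 6.31, 6.33, 6.42 and 6.39 in wild type and 5.78, 5.92, 5.60 and 5.74 in null samples. The groups were well apart, and the fall was 1.53-fold (limma adjusted p = 0.0025). Tbc1d8b fell 1.30-fold (limma adjusted p = 0.0358). The 6 measured genes of prenylation and membrane extraction held none that passed. The closest were Rabggtb, a subunit of the transferase (difference -0.57, limma adjusted p = 0.25), and Chml, a Rab escort protein gene (0.49, 0.266).

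Of 46 effector genes 3 fell and 0 rose (median -0.051). Rilpl2, which binds phosphorylated Rab8 and Rab10, was 7.05, 7.27, 7.06, 6.81 and 6.85 in wild type and 5.79, 6.50, 5.75 and 6.04 in null samples, all of which were lower. This was a 1.99-fold fall (limma adjusted p = 0.0103). Eea1, the early endosome tether recruited by Rab5, fell 1.89-fold and the Rab27 effector gene Sytl1 1.32-fold (limma adjusted p = 0.0316 for each).

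Of 19 measured genes whose products bind or regulate Rab6, 1 rose, 2 fell and 16 did not pass (median -0.044). Bicdl1, an adaptor between Rab6 vesicles and motors, had a wild-type mean of 5.97 ± 0.28 (SD, n = 5) and a null mean of 6.73 ± 0.17 (SD, n = 4), a 1.69-fold rise (limma adjusted p = 0.0208). Its values were between 5.68 and 6.31 in wild type and between 6.55 and 6.93 in null samples. Kif1c, a kinesin that binds Rab6, was 5.85 ± 0.075 (SD, n = 5) and 5.49 ± 0.029 (SD, n = 4), a 1.29-fold fall (limma adjusted p = 0.0115), and Dennd5a, named above, is also in this list. Of 7 Rab-like and large Rab genes none passed, and the closest were Cracr2a, a large Rab GTPase of T cells (difference -0.45, limma adjusted p = 0.183), and Rasef (0.15, 0.379).

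Of these 12 genes, Tbc1d4, Rilpl2, Als2cl, Dennd5a and Kif1c passed whichever 1 array was left out (highest limma adjusted p = 0.0491). Only Tbc1d4 and Rilpl2 passed in all 19 alternatives. With the replicate number as a block, Als2cl, Dennd5a and Kif1c missed the threshold (limma adjusted p = 0.116, 0.0969 and 0.0867). Bicdl1 missed the threshold without wild-type array 1 or 4 or null array 1 or 3 (0.0514 to 0.0647), and Dennd4a without wild-type array 3 or 4 or null array 1 or 3 (0.051 to 0.0611). Eea1 missed it in 8 of the 9 omissions (0.0564 to 0.0949), Rin2 in 8 (0.0502 to 0.0874), and Rab3ip (0.0639 to 0.0977), Sytl1 (0.0529 to 0.0882) and Tbc1d8b (0.0556 to 0.0972) in 7 each. Without null arrays 2 and 4 together, Bicdl1, Dennd4a, Rab3ip, Rin2 and Tbc1d8b missed the threshold, and after quantile normalisation Eea1, Sytl1 and Tbc1d8b did. Tbc1d8b also missed it with a trended and robust eBayes (limma adjusted p = 0.0512).

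**Figure D4:**
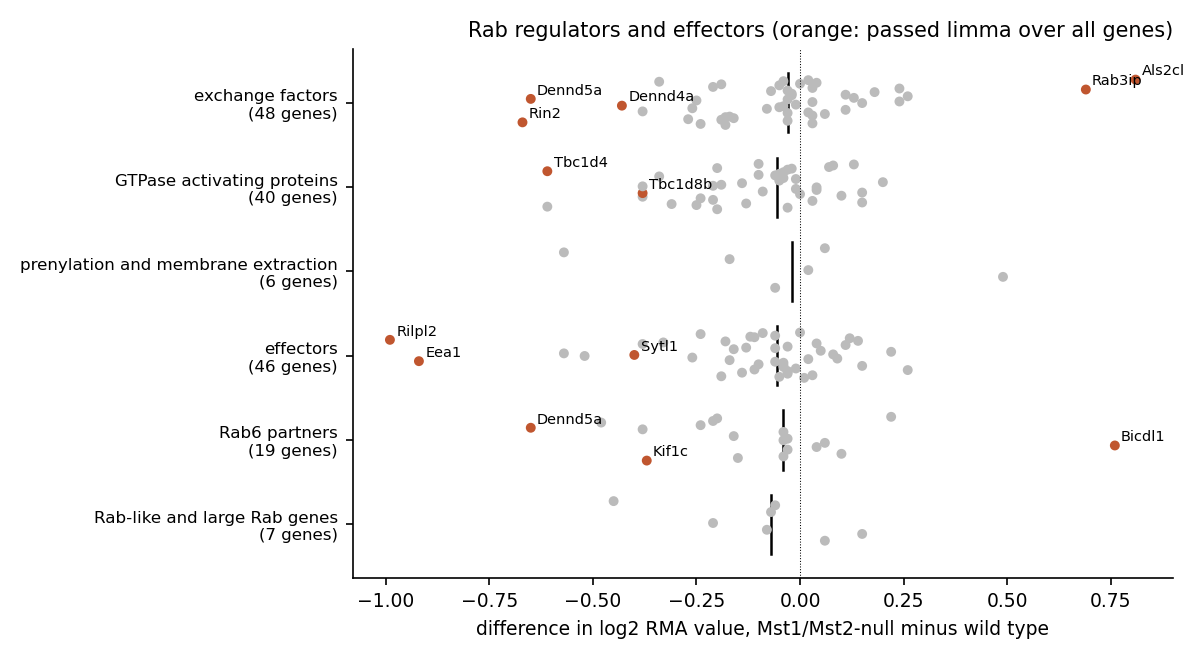
Difference in log2 value between Mst1/Mst2-null and wild-type samples for genes of 6 lists of Rab regulators and effectors; each point is a gene, orange and named where it passed limma over all genes, and the vertical bars are list medians. Rilpl2 (-0.99) and Eea1 (-0.92) lie lowest and Als2cl (0.81) highest.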

How the data were processed

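The 9 arrays (5 wild-type, 4 null) were read from the table of log2 values deposited by the authors, who ran the RMA method of Affymetrix Expression Console 1.1, according to the submitters' processing notes. RMA subtracts a background, equalises the arrays by quantile and joins the probes of a set, which leaves dim signal hard to tell from background; precision is limited by how many arrays there are. Per the labels' protocols, 1 to 20 ng of RNA was amplified. Array medians lay between 3.99 and 4.08.

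Symbols came from the platform annotation: of 41345 probe sets 23521 had 1 symbol, 1814 several and 16010 none listed, and only the first were named. Gene order and strands came from RefSeq tables of GRCm38.p6. The only coordinates printed are those of RefSeq promoters, since nothing names the array's own build (not given in the sources used here).

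Groups were compared with limma 3.58.1 (R 4.3.3; lmFit and eBayes, two-sided) over 22180 genes with Benjamini-Hochberg adjustment and a threshold of 0.05. No filter on dim genes was applied. The fit was tested on simulated data. Paralog pairs were compared by exact permutation tests. Named were Rab6a, Rab6b, members and list genes past the test, the 10 next members by p, and changed neighbours in gene order. Other members are given by value or range. The members and lists were chosen with earlier results of these data known. Pairs other than Rab6 and the check of probe set numbers were added after the values were seen. Alternatives were a replicate block, a filter on dim genes, joining probe sets by their mean or testing each, median centring, quantile normalisation, trended and robust eBayes, array weights, the Hspa1a and Hspa1b level as a covariate, and leaving out arrays. Null arrays 2 and 4 were left out together because they stood apart in an earlier look at these data. Same-numbered samples did not deviate together (correlations between -0.115 and 0.042), so replicate numbers were not taken as pairs. Python 3.11.15 and pandas 2.3.3 were used for tables, and plots were drawn with matplotlib 3.10.9.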

Additional observations from a re-analysis of the deposited data

How the results depend on the processing

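Of 33 gene differences, 0 changed direction under the alternatives, of which 31 differences had 19 and those of Rab26 and Rasef 18, since the filter on dim genes removed these genes. Rab6b passed in all 19, with differences between 3.0 and 3.2 and limma adjusted p between 1.98e-07 and 0.000586. With the replicate number as a block, 1 Rab gene passed (Rab6b), 178 genes in all and 0 neighbours of Rab6b. Of the pathway lists 3 genes passed in the block (Tbc1d4, Rilpl2 and Bicdl1). The block left Rab8b, Rab27a and Rab19 at limma adjusted p = 0.113, 0.115 and 0.0919. Rab6b minus Rab6a was 2.94 in the block (exact p = 0.125, the smallest that 4 numbers allow), and the numbers are not known to pair the samples. Without null arrays 2 and 4, 1 Rab gene (Rab6b) and 0 neighbours passed. Leaving out 1 array at a time gave between 1 and 3 Rab genes, between 271 and 594 genes in all, between 5 and 10 pathway genes, between 0 and 1 neighbours, and values of Rab6b minus Rab6a between 2.92 and 3.08. With the dim genes removed 711 genes passed, Rab19, Rab27a, Rab6b and Rab8b among them. Quantile normalisation changed the split of called genes from 95 higher and 420 lower to 170 higher and 306 lower. Without null arrays 2 and 4, 735 genes passed, 149 higher and 586 lower. Members below the median of all probe sets are limited by dim signal, and a small change in them could not be seen.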
